A study of Mus musculus with 23 samples.

Results

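Retinoid handling in PyMT mammary tumors was followed through 9 genes, chosen by name as the binding, synthesis and receptor genes of this pathway because Crabp1 had been seen lower in IL-38 knockout tumors. They are the vitamin A transport genes Rbp4 and Stra6, the binding protein genes Crabp1 and Crabp2, the synthesis genes Aldh1a1 and Aldh1a3, and the receptor genes Rara, Rarb and Rarg. All 9 had a row among the 47643 genes of the tables, of which 27483 had at least 1 read in any tumor. PyMT mice carry the polyoma middle T oncogene, a transgene that drives tumors of the mammary epithelium, and all tumors came from female mice on a C57BL/6 background with this transgene. In the neutralization experiment, PyMT WT mice with an established first tumor received a human IgG1 isotype control (isotype IgG, 5 tumors) or a neutralizing antibody against the cytokine IL-38 (anti-IL-38, 6 tumors). In the experiment on the γδ T cell receptor, PyMT WT mice received hamster IgG (WT + IgG, 4 tumors), and PyMT mice with a germline IL-38 knockout received the same IgG (KO + IgG, 4 tumors) or an antibody that blocks the γδ TCR (KO + anti-γδTCR, 4 tumors). Antibodies were given once a week for 5 weeks in every group, and no group of WT mice with γδ TCR blockade was analysed here. Treatment began at a set tumor size in the neutralization experiment and at a set age in the γδ TCR experiment. RNA came from dissociated whole tumors, so all cells of the tumor contributed.

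Retinol, the transport form of vitamin A, travels in blood bound to retinol binding protein (Rbp4) and enters some cells through the membrane receptor Stra6. Cells oxidize it to retinaldehyde and then, by the retinaldehyde dehydrogenases Aldh1a1 and Aldh1a3, to retinoic acid. Crabp1 and Crabp2 bind retinoic acid in the cytosol. Crabp2 is known to hand the ligand to the nuclear receptors Rara, Rarb and Rarg, and Crabp1 is commonly linked to its retention or breakdown. The receptors bind DNA together with retinoid X receptors, often at a pair of like hexamers in the same orientation, and Rarb and the breakdown enzyme gene Cyp26a1 are classical targets. In mammary epithelium, Aldh1a1 and Aldh1a3 are also widely used as marks of progenitor-like cells.

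Because the receptors act through such repeats, the 250 bases upstream of each annotated start were read from RefSeq on GRCm38.p6, where 7 of the 9 genes had an entry, with 16 start sites together. Direct repeats were searched on both strands as pairs of the hexamers AGGTCA and AGTTCA as well as GGGTCA and GGTTCA, in any combination and the same orientation, separated by 1, 2 or 5 bases. Of the 9 genes, only Rarb held such a repeat in this window, with 5 bases between the hexamers. Among the 53 upstream windows of other retinoid pathway genes, 2 held a repeat, those of Bco1 and Cyp26a1. Of all 32851 annotated windows of this length, 0.0883% held a repeat with 5 bases between the hexamers, 0.164% one with 1 base and 0.174% one with 2 bases, whereas 38.6% held at least 1 hexamer. The windows of 3 genes follow, 5′ to 3′ on the strand of the gene, with capitals on the hexamers of the repeat. Crabp1 is shown as the gene that led to the choice of the 9 genes. Rarb and Cyp26a1 are shown as the pathway genes with a repeat of 5-base spacing.

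Crabp1, chr9:54764498-54764747, plus strand of GRCm38: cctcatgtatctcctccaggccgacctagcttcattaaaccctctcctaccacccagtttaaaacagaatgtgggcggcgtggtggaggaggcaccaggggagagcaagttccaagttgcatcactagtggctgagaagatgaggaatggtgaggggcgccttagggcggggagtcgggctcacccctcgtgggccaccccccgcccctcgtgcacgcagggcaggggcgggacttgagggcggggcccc

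Rarb, chr14:16575477-16575726, minus strand of GRCm38: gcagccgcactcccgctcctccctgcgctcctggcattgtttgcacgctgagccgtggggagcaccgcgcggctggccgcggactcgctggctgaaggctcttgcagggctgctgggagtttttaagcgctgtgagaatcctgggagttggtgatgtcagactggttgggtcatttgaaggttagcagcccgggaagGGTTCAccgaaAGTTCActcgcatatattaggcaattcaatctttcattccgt

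Cyp26a1, chr19:37697558-37697807, plus strand of GRCm38: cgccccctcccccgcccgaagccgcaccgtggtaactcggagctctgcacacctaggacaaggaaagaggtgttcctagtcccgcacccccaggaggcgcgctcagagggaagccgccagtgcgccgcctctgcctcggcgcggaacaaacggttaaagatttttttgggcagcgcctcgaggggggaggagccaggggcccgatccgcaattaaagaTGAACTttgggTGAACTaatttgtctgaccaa

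The Crabp1 window had a GC content of 63.6% and none of the hexamers searched. The Rarb repeat began 53 bases before the start of transcription. In the Cyp26a1 window the repeat lay on the opposite strand and began 32 bases before the start. These matches describe letters in a window and not occupied sites.

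Each library held between 6273049 and 15879164 gene reads. Levels are given as CPM, the reads of a gene divided by this total and put on 1 common scale for all 23 tumors. The reads come from transcript 3′ ends, so levels are compared between tumors and not between genes. Differences are given on the scale of log2(normalized count + 1), which understates the change of genes with few reads. Replicate 4 of KO + IgG and all 4 tumors of KO + anti-γδTCR stood apart from the other 18. Their totals were 6273049 to 8794202 reads against 10138353 to 15879164, and 1.34% to 2.03% of their reads fell on processed pseudogenes against 0.103% to 0.202%. The single gene Gm42418 held 11.3% to 20.1% of their reads, against 2.62% to 5.70% in the other 18. Its reads stay in the total behind CPM, which lowers the CPM of other genes in these 5 libraries by uneven amounts. These 5 libraries carried the sample sheet numbers 19 to 23 in the table headers. Of the 5, 4 are the blockade group, so this set and the blockade cannot be told apart. The header of replicate 3 of KO + anti-γδTCR, the library with the fewest reads, also carries the mark rep, which the labels do not explain. All 8 luminal epithelial markers had reads in every group, with a summed level of 1554 to 4225 CPM per tumor. Il1f10, the gene of IL-38, had 0 reads in all 23 tumors, so the genotype labels could not be checked on it.

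Crabp1 (ENSMUSG00000032291, chr9:54764748-54773110 on GRCm38) was lower in all 4 KO + IgG tumors than in any WT + IgG tumor. Its level was 17.7, 10.9, 14.2 and 14.1 CPM in the 4 WT + IgG tumors and 4.36, 4.94, 5.04 and 7.77 CPM in the 4 KO + IgG tumors. The gap lay between the lowest WT tumor, at 10.9 CPM, and the highest KO tumor, at 7.77 CPM. As normalized counts the groups held 166 ± 29.1 (SD, n = 4) and 66.0 ± 19.4 (SD, n = 4), a difference of −1.34 ± 0.23 (SE) on the log2 scale. This is the observation by which the gene was picked, so no test is attached to it. Of all 16563 genes compared between these groups, 7.06% did not overlap in either direction and 3.41% did not overlap with the knockout lower. Leaving out single tumors gave differences between −1.53 and −1.24, where the sign was fixed because the groups do not overlap. In whole tumors, fewer cells that express a gene and less RNA per cell cannot be told apart.

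Other tumors of the same genotype without IL-38 knockout did not hold Crabp1 at the WT + IgG level. They came from the neutralization experiment, which differed in the control IgG, its dose and the start of treatment. The 5 isotype IgG tumors, also PyMT WT, had 23.1, 6.57, 2.12, 6.05 and 1.27 CPM, with 4 of 5 below every WT + IgG tumor and the remaining tumor above all of them. The 6 anti-IL-38 tumors ran from 1.43 to 17.97 CPM with a median of 8.57 CPM, and the 4 KO + anti-γδTCR tumors had 5.74, 11.1, 5.58 and 12.3 CPM. By group mean, the order was WT + IgG with 14.3 ± 2.79 CPM (SD, n = 4), KO + anti-γδTCR with 8.67 ± 3.51 (n = 4), anti-IL-38 with 8.59 ± 5.57 (n = 6), isotype IgG with 7.83 ± 8.87 (n = 5) and KO + IgG with 5.53 ± 1.53 (n = 4). Single tumors decide part of this order, since the isotype IgG mean rests on 1 tumor at 23.1 CPM and the lowest levels, 1.27, 1.43 and 2.12 CPM, belong to isotype IgG and anti-IL-38 tumors. Each group overlapped its neighbours, and the KO + IgG levels lay within the range of the isotype IgG tumors of the other experiment. The number of Crabp1 reads behind these levels was 17 to 298 per tumor.

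**Figure D1:**
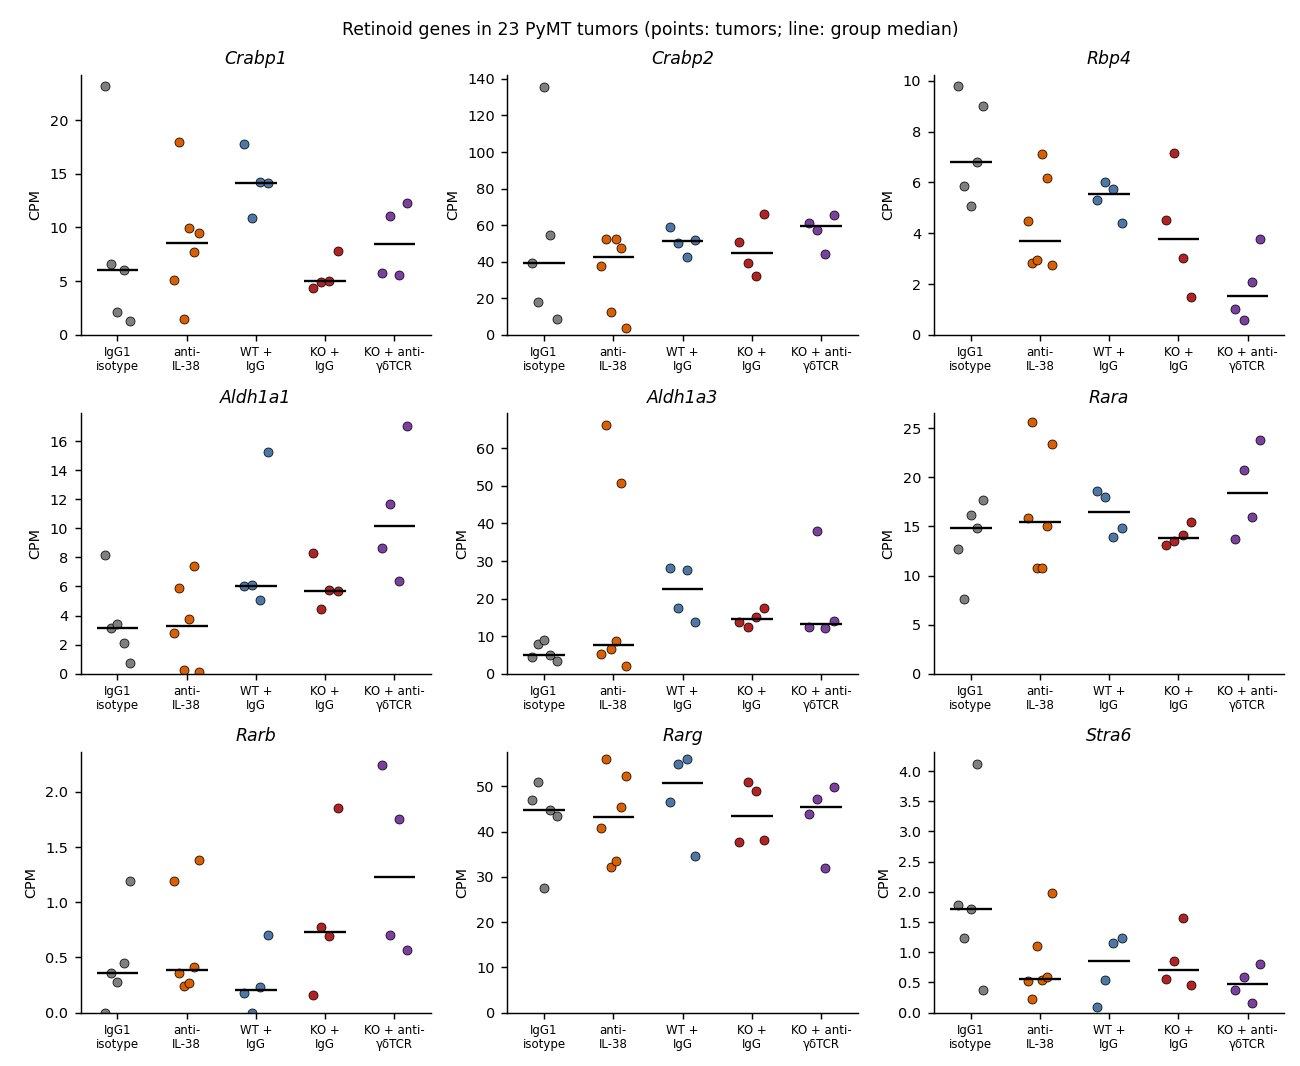
Levels of the 9 retinoid genes in CPM (linear axis from 0) in each of the 23 PyMT tumors by group, with the line at the group median. Crabp1 separates WT + IgG (10.9 to 17.7 CPM) from KO + IgG (4.36 to 7.77 CPM), while the isotype IgG and anti-IL-38 tumors spread across both ranges.

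Some marker levels moved with Crabp1 between genotypes. The summed level of the 8 adipocyte markers was 322 to 448 CPM in WT + IgG and 57.8 to 297 CPM in KO + IgG, without overlap. Taken singly, only Fabp4 of these markers did not overlap (88.7 to 149 CPM against 25.8 to 86.3 CPM). The others overlapped, among them Cfd (95.9 to 223 CPM against 16.9 to 184 CPM). The 6 macrophage markers summed to 1814 to 2396 CPM in WT + IgG and 788 to 1985 CPM in KO + IgG. The 788 CPM belonged to replicate 4 of KO + IgG, a library that stood apart, beside 1469, 1597 and 1985 CPM in replicates 1 to 3. The 6 basal or myoepithelial markers summed to 346 to 756 CPM in WT + IgG and 229 to 388 CPM in KO + IgG. All markers of these 3 lists had reads in both groups. By median, the T cell list was also lower in KO + IgG, at 9.04 CPM against 13.4 CPM in WT + IgG. The remaining lists had higher medians in KO + IgG, among them luminal epithelium (3143 against 2725 CPM) and fibroblasts (4052 against 3322 CPM). The part of these cell types in the Crabp1 difference was not tested. In the other experiment, replicate 1 of isotype IgG had the highest Crabp1 level of all 23 tumors, 23.1 CPM, with 87.1 CPM of adipocyte markers. Replicate 4 of anti-IL-38 had the highest adipocyte marker sum, 648 CPM, with 9.93 CPM of Crabp1. Over all 23 tumors, with group means subtracted, Crabp1 had a Spearman coefficient of 0.35 with the adipocyte list.

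The other 8 genes overlapped between KO + IgG and WT + IgG. Crabp2 (ENSMUSG00000004885, chr3:87948666-87953376), the other cytosolic binding protein gene, had 58.9, 50.2, 42.5 and 51.9 CPM in WT + IgG and 50.6, 39.1, 32.0 and 66.2 CPM in KO + IgG, a log2 difference of −0.13 ± 0.25 (SE). The 2 binding protein genes thus had unequal differences, which were not compared by a test. Aldh1a3 (ENSMUSG00000015134, chr7:66390890-66427517) had 28.0, 17.4, 27.5 and 13.8 CPM in WT + IgG and 13.8, 12.4, 15.1 and 17.5 CPM in KO + IgG (−0.48 ± 0.27). Aldh1a1 (ENSMUSG00000053279, chr19:20492715-20643465) had 6.00, 6.08, 5.07 and 15.3 CPM in WT + IgG and 8.32, 4.47, 5.73 and 5.68 CPM in KO + IgG (−0.28 ± 0.40). Aldh1a1 had 1 high WT tumor, replicate 4, and its difference ran from −0.45 to 0.07 when single tumors were left out.

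Among the receptors, Rara (ENSMUSG00000037992, chr11:98927818-98974942) had 18.6, 18.02, 13.98 and 14.8 CPM in WT + IgG and 13.2, 13.5, 14.1 and 15.4 CPM in KO + IgG (−0.19 ± 0.12). Rarg (ENSMUSG00000001288, chr15:102234938-102257517) had 46.6, 54.8, 56.1 and 34.7 CPM and 37.6, 50.9, 48.9 and 38.2 CPM (−0.09 ± 0.20). Both receptors had like ranges in the 2 genotypes. Rarb (ENSMUSG00000017491, chr14:16430839-16819156) was near the limit of detection, with 0.17, 0, 0.23 and 0.70 CPM in WT + IgG and 0.16, 0.77, 0.69 and 1.86 CPM in KO + IgG (1.49 ± 0.91). The WT tumor without a Rarb read allows up to 0.234 CPM at its depth (3 counts of its total). When replicate 1 of KO + IgG was left out, the 2 genotypes no longer overlapped for Rarb in normalized counts (8.31 in the lowest KO tumor against 8.15 in the highest WT tumor), but in CPM they still did (0.69 against 0.70). With that tumor left out, 1938 of all 16563 genes compared did not overlap in normalized counts. No Rarb level rested on more than 18 reads, and 7 of 23 tumors had 3 reads or fewer.

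The transport genes were low throughout. Rbp4 (ENSMUSG00000024990, chr19:38116629-38125281), which liver and fat are known to secrete, had 5.31, 6.01, 5.76 and 4.39 CPM in WT + IgG and 4.52, 7.17, 3.02 and 1.51 CPM in KO + IgG (−0.57 ± 0.46). Stra6 (ENSMUSG00000032327, chr9:58063788-58153996) had 0.09, 0.55, 1.15 and 1.23 CPM and 0.55, 0.85, 1.57 and 0.46 CPM (0.43 ± 0.77). Over the 9 genes, 2 were higher and 7 lower in KO + IgG, with a median difference of −0.19 against 0.01 over all genes compared. Crabp1, which was picked for being lower, is 1 of the 7. The signs of Crabp2, Aldh1a1 and Stra6 changed when single tumors were left out, so this count is not a result about the pathway.

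The neutralization experiment shares no tumor with the genotype comparison and asks whether an antibody against IL-38 goes along with the same genes. None of the 9 genes passed the threshold of 0.05 in limma after Benjamini-Hochberg adjustment, as was true of all 16002 genes tested (0.0% called). Only Rbp4 of the 9 genes had an unadjusted p under 0.05, beside 10.5% of all genes, and 0 of the 9 separated the groups without overlap, beside 1.04% of all genes. edgeR called 0 genes, and DESeq2 called 75 genes (0.469%), none of them a member.

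Crabp1 did not show the knockout pattern here. Of the 6 anti-IL-38 tumors, 4 lay above the isotype IgG median, and the log2 difference was 0.54 ± 0.69 (limma SE, adjusted p = 0.792). A two-sided exact permutation test of the difference gave p = 0.515 over 462 groupings, where the smallest possible p is 0.00433. The spread within the isotype IgG group was wide, since its highest tumor held 298 reads and its lowest 17. The antibody effect and the knockout effect on Crabp1 were not tested against each other.

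Rbp4 was the gene with the unadjusted p under 0.05. The isotype IgG tumors had 9.79, 5.85, 5.05, 6.80 and 9.01 CPM, and the anti-IL-38 tumors ranged from 2.76 to 7.13 CPM with a median of 3.70 CPM. Of the 6 treated tumors, 4 lay below every control tumor and 2 within the control range. The log2 difference of −0.74 ± 0.29 had an adjusted p of 0.432 in limma, so it did not pass over all genes. Leaving out single tumors kept it between −0.90 and −0.62. Alb and Ttr, defining liver genes, were at or near 0, as the liver-type list summed to at most 0.464 CPM in any tumor. Adipocyte markers summed to 42.4 to 97.5 CPM in isotype IgG and 17.3 to 648 CPM in anti-IL-38. Macrophage markers summed to 2177 to 3023 CPM (median 2473) in isotype IgG and 1840 to 2569 CPM (median 2139) in anti-IL-38. Over all 23 tumors, with group means subtracted, Rbp4 had a Spearman coefficient of 0.47 with the macrophage list and 0.23 with the adipocyte list. The part of these cell types in the Rbp4 level was not tested. Stra6, its receptor, had 1.79, 1.23, 1.71, 4.11 and 0.37 CPM in isotype IgG and 0.22 to 1.97 CPM (median 0.56) in anti-IL-38, with a log2 difference of −0.98 ± 0.60 (limma adjusted p = 0.557).

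Aldh1a3 was high in 2 of the 6 anti-IL-38 tumors only. Replicates 2 and 5 had 66.1 and 50.8 CPM, whereas the other 4 had 5.22, 6.57, 8.76 and 2.07 CPM. The isotype IgG tumors had 4.35, 7.79, 9.08, 4.93 and 3.28 CPM, which is the range of these 4. The log2 difference was 1.09 ± 0.75 (limma adjusted p = 0.604), and the count models gave 2.02 with an adjusted p of 0.423 in edgeR and 0.284 in DESeq2. Without replicate 2 it was 0.58. The 6 basal or myoepithelial markers summed to 1765 and 1058 CPM in these 2 tumors and to 78.3 to 430 CPM in the other 4. Acta2 had the highest level of these markers, with up to 1259 CPM in anti-IL-38, against up to 145 CPM for Krt5. Krt14 reached at most 54.9 CPM in anti-IL-38, below its isotype IgG maximum of 67.4 CPM. The part of basal cells in the Aldh1a3 level was not tested.

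Aldh1a1 and Crabp2 spread widely in both arms. Aldh1a1 had 8.16, 3.18, 3.42, 2.09 and 0.74 CPM in isotype IgG and 0.10 to 7.42 CPM (median 3.31) in anti-IL-38, a difference of −0.63 ± 0.94 (limma adjusted p = 0.824). Crabp2 had 39.4, 18.2, 135.8, 54.8 and 8.78 CPM in isotype IgG and 3.45 to 52.5 CPM (median 42.7) in anti-IL-38, a difference of −0.44 ± 0.76 (limma adjusted p = 0.855). Neither direction was stable, because without replicate 6 of anti-IL-38 the differences became 0.034 for Aldh1a1 and 0.13 for Crabp2. That tumor had 0.10 CPM of Aldh1a1, which is 1 read, and the lowest Crabp2 level of all 23 tumors.

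The receptor genes also overlapped between the arms. Rara had 12.7, 7.58, 16.1, 14.8 and 17.7 CPM in isotype IgG and 10.7 to 25.6 CPM (median 15.4) in anti-IL-38 (0.32 ± 0.27, limma adjusted p = 0.671). Rarg had 47.0, 51.0, 27.5, 44.7 and 43.5 CPM and 32.2 to 56.1 CPM (median 43.1), with a difference of 0.07 ± 0.18 (limma adjusted p = 0.901). Rarb had 0, 0.36, 0.27, 0.45 and 1.19 CPM and 0.24 to 1.38 CPM (median 0.39), with a difference of 0.67 ± 0.70 (limma adjusted p = 0.743). Rarg had the narrowest error of the 9 genes, and Rarb rested on at most 16 reads in these tumors.

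**Figure D2:**
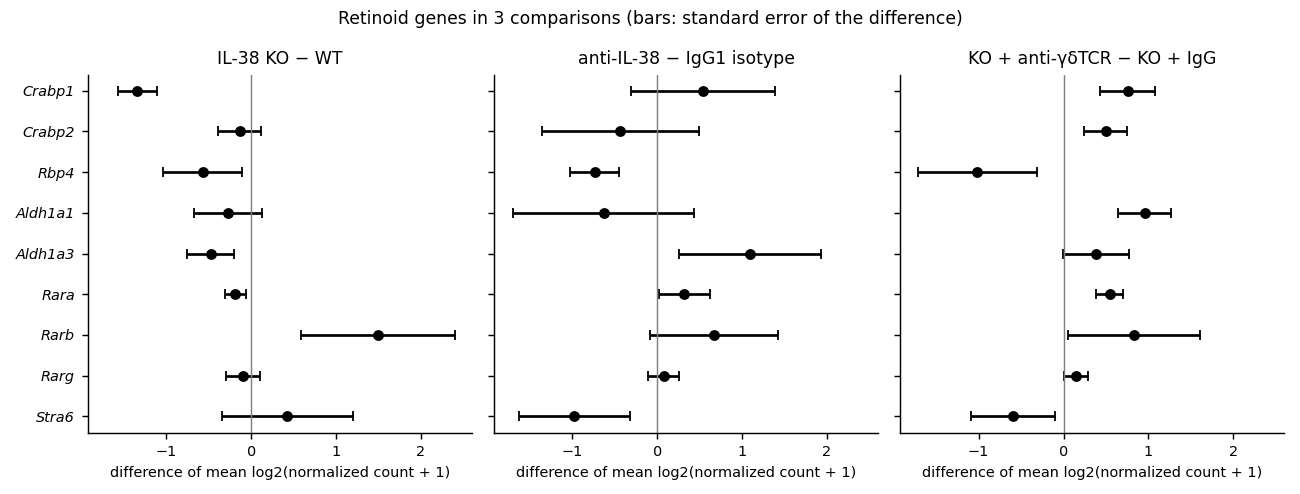
Difference of the group means of log2(normalized count + 1) for the 9 genes in the 3 comparisons, with bars for the unpooled standard error of the difference. Crabp1 lies at −1.34 for IL-38 KO against WT and at 0.54 for anti-IL-38 against isotype IgG, and the right panel shares its KO + IgG tumors with the left one.

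Blockade of the γδ TCR in IL-38 KO mice was compared with IgG in the same genotype, in the second table. The 4 KO + IgG tumors are those of the genotype comparison, so Crabp1 is described here without a test. Its log2 difference was 0.76 ± 0.32 (SE), with 50.7 ± 15.9 normalized counts (SD, n = 4) in KO + IgG and 87.8 ± 30.4 (n = 4) after blockade. All 4 blockade tumors lay above the KO + IgG median of 4.99 CPM, and 2 lay above its highest tumor. Replicate 4 of KO + IgG, the single control tumor in the set of 5 libraries that stood apart, had 7.77 CPM, within the blockade range of 5.58 to 12.3 CPM.

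None of the other 8 genes passed the adjusted threshold in limma, and neither did any of the 16481 genes tested (0.0%). Of these 8 genes, 3 were higher after blockade with an unadjusted p under 0.05 and 0 were lower, beside 12.7% and 9.0% of all genes (21.7% together). None of the 8 separated the groups without overlap, beside 9.54% of all genes. edgeR called 0 genes, and DESeq2 called 1024 genes (6.21%), Aldh1a1 among them.

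Aldh1a1 was 1 of these 3 genes, with the smallest p. It had 8.32, 4.47, 5.73 and 5.68 CPM in KO + IgG and 8.61, 11.7, 6.38 and 17.1 CPM after blockade, where 3 of 4 tumors lay above all controls. The log2 difference was 0.96 ± 0.30, with an adjusted p of 0.0946 in limma, and 1.01 with an adjusted p of 0.0440 in DESeq2. Against replicate 4 of KO + IgG alone, with 5.68 CPM, all 4 blockade tumors were higher, a contrast with 1 control and no test. The basal or myoepithelial markers summed to 229 to 388 CPM in KO + IgG and to 219, 629, 512 and 459 CPM after blockade, and their part in the Aldh1a1 difference was not tested. Some reads of Aldh1a1 may be shared with its near-identical copy Aldh1a7, so the value of this gene is uncertain to that degree.

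Rara and Crabp2 were the others. Rara had 13.2, 13.5, 14.1 and 15.4 CPM in KO + IgG and 13.7, 20.8, 15.9 and 23.8 CPM after blockade (0.54 ± 0.19, limma adjusted p = 0.126). Crabp2 had 50.6, 39.1, 32.0 and 66.2 CPM in KO + IgG and 61.2, 57.6, 44.2 and 65.5 CPM after blockade (0.50 ± 0.22, limma adjusted p = 0.230). The highest Crabp2 level of the 8 tumors belonged to replicate 4 of KO + IgG, a control tumor. Without this tumor the Crabp2 difference was 0.70 with an adjusted p of 0.0214 in limma, in a fit that called 14.3% of all genes. The only control that shares the low depth and the pseudogene share of the blockade tumors is thereby removed. In CPM this tumor lay above all 4 blockade tumors. In normalized counts it had 631, within the blockade range of 501 to 641. That contrast has 1 control and no test.

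Rbp4 was lower after blockade, but within its spread. KO + IgG tumors had 4.52, 7.17, 3.02 and 1.51 CPM and blockade tumors 1.00, 0.58, 2.07 and 3.75 CPM (−1.02 ± 0.61, limma adjusted p = 0.371). Replicate 4 of KO + IgG held the lowest control level and lay inside the blockade range. Aldh1a3 had 12.4, 38.1, 12.1 and 14.1 CPM after blockade against 12.4 to 17.5 CPM (0.38 ± 0.33, limma adjusted p = 0.559), and without the tumor at 38.1 CPM the difference was 0.01. Rarg (0.15 ± 0.16, limma adjusted p = 0.647), Rarb (0.83 ± 0.71, adjusted p = 0.552) and Stra6 (−0.60 ± 0.59, adjusted p = 0.609) did not pass the threshold. Macrophage markers summed to 788 to 1985 CPM in KO + IgG and 606 to 984 CPM after blockade, with the lowest control value in replicate 4, and their part in the Rbp4 difference was not tested.

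The remaining pathway was read through 63 other genes, of which 62 had a row and 52 passed the filter in the neutralization comparison. None passed the adjusted threshold there (0 of 52), and for 10 of them the unadjusted p was under 0.05 (2 higher, 8 lower, beside 5.61% and 4.91% of all genes). The 2 higher genes encode enzymes of retinol and retinaldehyde turnover, Adh1 (1.61 ± 0.69, limma adjusted p = 0.455) and Rdh12 (0.75 ± 0.32, adjusted p = 0.451). Among the lower genes were the retinol binding protein gene Rbp7 (−1.37 ± 0.56, adjusted p = 0.436), the lipid carrier gene Fabp5, which can pass retinoic acid to another receptor (−0.36 ± 0.13, adjusted p = 0.425), and the dehydrogenase gene Dhrs9 (−0.53 ± 0.21, adjusted p = 0.434). The coactivator gene Ncoa3 (−0.37 ± 0.14) and the retinoic acid induced gene Gprc5a (−1.03 ± 0.39) were also in this count. Of the 52 genes, 26 were higher and 26 lower, with a median difference of −0.0020 against 0.0019 over all genes tested.

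In the blockade comparison 54 of these genes passed the filter, of which 0 were called by limma after adjustment, and for 5 of them the unadjusted p was below 0.05 (2 higher, 3 lower), beside 21.7% of all genes (12.7% higher, 9.0% lower). The lower genes were Lpl, a lipase that also frees vitamin A esters from lipoproteins (−3.01 ± 0.67, limma adjusted p = 0.0657), Fabp5 (−2.31 ± 0.54, adjusted p = 0.0657) and the retinaldehyde reductase gene Dhrs3 (−1.31 ± 0.42, adjusted p = 0.0984). The higher genes were Rai14 (0.96 ± 0.28, adjusted p = 0.0852) and the retinol dehydrogenase gene Rdh10 (0.50 ± 0.21, adjusted p = 0.207). Lpl was at 974, 967, 1328 and 129 CPM in KO + IgG and at 69.3, 47.4, 43.4 and 164 CPM after blockade. The low control value belonged to replicate 4, which for Lpl, Fabp5 (31.4 CPM), Dhrs3 (32.4 CPM) and Rai14 (39.4 CPM) lay nearer to the blockade tumors than to the other 3 controls. The blockade tumors had 17.6 to 29.8 CPM of Fabp5, 27.0 to 44.5 CPM of Dhrs3 and 34.1 to 43.7 CPM of Rai14. DESeq2 called 4 of the 54 genes, beside 6.21% of all genes, and limma without replicate 4 of KO + IgG called 6, beside 14.3%, so neither count is a result about the pathway.

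Between the genotypes 53 of these genes passed the filter, and 2 did not overlap, Bco1 and Pml, both lower in KO + IgG and named after their values were seen. This count stands beside 7.06% of all genes in either direction and 3.41% with the knockout lower, and is near those shares. The median difference was −0.08 against 0.01 over all genes. Cyp26a1, the breakdown gene shown above for its repeat, had 2.78, 1.72, 2.07 and 1.32 CPM in WT + IgG, 2.77, 2.16, 3.65 and 2.20 CPM in KO + IgG and 3.12, 2.80, 4.78 and 2.84 CPM after blockade. WT + IgG overlapped KO + IgG, which overlapped KO + anti-γδTCR. The 2 groups of the neutralization experiment had 0 to 2.46 CPM and 0 to 2.96 CPM. Each held 1 tumor without a read, where a count of 0 allows up to 0.223 CPM (isotype IgG) and 0.238 CPM (anti-IL-38). Rarb, the member with a repeat, was likewise at few reads everywhere.

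**Figure D3:**
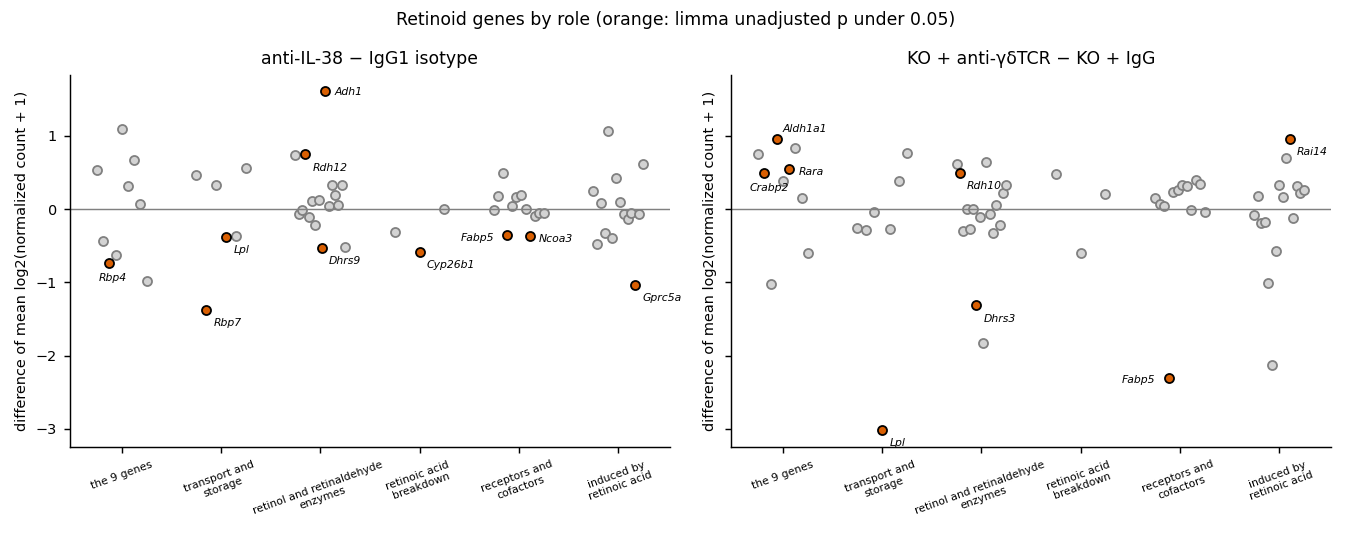
Difference of the group means of log2(normalized count + 1) for the 9 genes and the other retinoid pathway genes that passed the filter, with 1 gene not shown, by role, in the 2 comparisons that were tested. Orange points have an unadjusted limma p under 0.05, none passed after adjustment, and the lowest point is Lpl at −3.01 after blockade.

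The 9 genes differed in how they varied across tumors. Patterns were compared as log2(CPM + 0.5) after the mean of each group was subtracted, over 23 tumors that share libraries and depth, so coefficients are descriptive. The highest Spearman coefficient between members was 0.67, for Crabp2 with Aldh1a1, and the lowest was −0.46, for Aldh1a1 with Rarb. Crabp1 and Crabp2 had a coefficient of 0.33, and Aldh1a1 and Aldh1a3 one of 0.37. With the summed basal or myoepithelial markers, Aldh1a3 had 0.73 and Aldh1a1 0.67. Crabp1 had 0.60 with the summed T cell markers, which reached at most 19.9 CPM in any tumor, and 0.52 with the basal list.

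For the 7 members with a mean of at least 1 CPM, the genes of most like pattern were named among 11305 genes. Crabp2 was most like Hey1 (Spearman 0.93, Pearson 0.89), 2200002D01Rik (0.92 and 0.96) and Atp10b (0.85 and 0.91), and Hey1 encodes a transcriptional repressor known as a target of Notch signaling. Aldh1a1 was most like the sodium channel gene Scn7a (0.90 and 0.91), Mlh3 (0.86 and 0.74) and Plce1 (0.84 and 0.82). Aldh1a3 was most like the keratin genes Krt5 (0.83 and 0.82) and Krt7 (0.83 and 0.83) and the ephrin gene Efnb2 (0.82 and 0.72). The tumor with the lowest Crabp2 level also had the lowest Hey1 level, and Krt5 is also 1 of the 6 basal markers given above for Aldh1a3.

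Crabp1 was most like Lsm6 (0.84 and 0.73), Gnpda2 (0.81 and 0.74) and Dok4 (0.79 and 0.73). Rbp4 was most like Kctd2 (0.83 and 0.78), the chemokine gene Ccl17 (0.75 and 0.77) and Tmem140 (0.73 and 0.67). Rara was most like Pgm2 (0.86 and 0.79), Yrdc (0.82 and 0.81) and Ripor1 (0.76 and 0.69), and Rarg most like Fermt1 (0.86 and 0.79), Dcps (0.81 and 0.86) and Calcoco1 (0.79 and 0.75). Without replicate 4 of KO + IgG, all 3 genes named for Crabp2 stayed among its 3 most alike, as did 2 of 3 for Crabp1, Aldh1a3 and Rara and 1 of 3 for Rbp4, Aldh1a1 and Rarg.

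**Figure D4:**
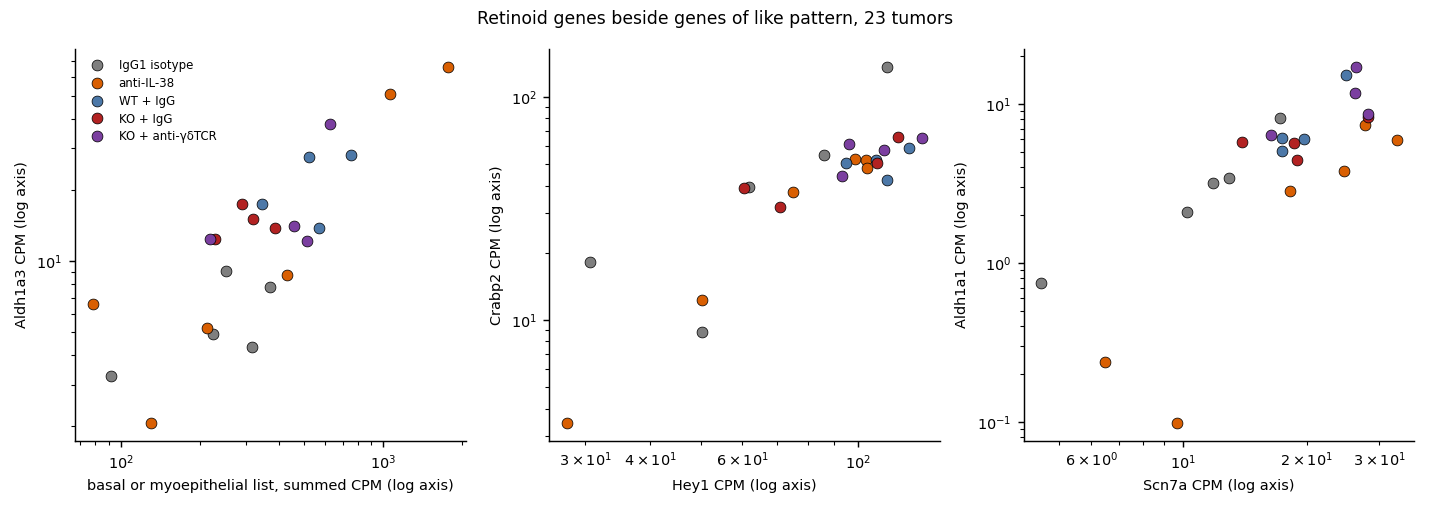
Levels in the 23 tumors (both axes logarithmic, in CPM, points colored by group) of Aldh1a3 against the summed 6 basal or myoepithelial markers, Crabp2 against Hey1 and Aldh1a1 against Scn7a. The 2 anti-IL-38 tumors with 66.1 and 50.8 CPM of Aldh1a3 are also those with the highest basal marker sums, 1765 and 1058 CPM.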

How the data were processed

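RNA from 23 PyMT tumors was sequenced with QuantSeq, a 3′ mRNA method. Reads went through the QuantSeq pipeline of BlueBee Genomics, run by the authors, and the submitters' processing notes name STAR, HTSeq, DESeq2 and GRCm39 without versions or roles. The tables the authors deposited hold signal, namely normalized counts (a library's read counts over its size factor), and were normalized separately for 19 and for 8 libraries. The 4 KO + IgG libraries stand in both. Dividing each value by what 1 read is worth in its library gave whole reads (100% of values within 0.0001%), and from these CPM. In WT + IgG replicate 1 that value was 0.996, too near 1 to tell whole reads from rounding.

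Symbols and positions came from GENCODE M21 on GRCm38 by gene ID (47224 of 47643 matched), and upstream sequences from RefSeq on GRCm38.p6. Crabp2 and Aldh1a3 had no entry there. Rarb overlaps Top2b, and Stra6 overlaps Ccdc33, each on the opposite strand. The strand setting of the counting is not given in the sources used here, so reads of such pairs cannot be told apart. Depth was 6273049 to 15879164 reads, so the limit that a count of 0 sets was 0.189 to 0.478 CPM (3 counts). Such limits cover counting error only, since the reads carry no molecular identifiers.

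Genes whose mean normalized count reached 5 were compared by limma 3.58.1 (R 4.3.3) on log2 values with a pseudocount of 1 (two-sided, eBayes with a trend, Benjamini-Hochberg over all genes, threshold 0.05), with the libraries of 1 comparison in each fit. The genotype comparison, which chose Crabp1, and Crabp1 in the blockade comparison, which shares the KO + IgG tumors, have no test. The 9 genes, the pathway and marker lists and the alternatives were chosen with earlier results of these data known. Named pathway genes are those with an unadjusted p under 0.05, at most the 8 with the smallest p per comparison, and 1 of them is not reported here. Genes of like pattern are the 3 with the highest Spearman coefficient among genes with a mean of at least 5 CPM. Alternatives were pseudocounts of 0.5 and 5, no filter or a mean of at least 20, TMM, edgeR 4.0.16 and DESeq2 1.42.0 on the recovered reads, a replicate block, and leaving out each tumor. Fits were checked on simulated counts. No pair of libraries in a group was a duplicate (chi-square per degree of freedom 17.1 to 138 over 43 pairs). Each library is 1 tumor by the labels. The labels do not tie tumors to litters or days, and do not state whether each tumor came from its own mouse. The p-values therefore measure the spread between tumors.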

Additional observations from a re-analysis of the deposited data

Results flagged for a closer look

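Of 45 sets of values tested, each being 1 gene in 1 group, 3 held a tumor far from the others of its group, and chance marks about 1 in 20 such sets. Crabp1 was 23.1 CPM in replicate 1 of isotype IgG against 1.27 to 6.57 CPM in the other 4 tumors. Aldh1a1 was 15.3 CPM in replicate 4 of WT + IgG against 5.07 to 6.08 CPM in the other 3, and Aldh1a3 was 38.1 CPM in replicate 2 of KO + anti-γδTCR against 12.1 to 14.1 CPM in the other 3. The latter tumor also had the highest basal or myoepithelial marker sum of its group, 629 CPM against 219 to 512 CPM.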

How the results depend on the processing

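Of the values recomputed under the alternatives, 538 kept their direction and their side of the threshold or, without a test, moved by less than the spread. Among the others, 7 turned in sign in a tested comparison, 8 moved further and 2 newly passed the threshold. The 538 include sign changes in the untested genotype comparison. With each tumor left out, Crabp2 ran there from −0.33 to 0.03, Aldh1a1 from −0.45 to 0.07 and Stra6 from −0.22 to 0.76. In the neutralization comparison 0 of the 9 genes and 0 of the other pathway genes passed the threshold under every alternative. In the blockade comparison the count of members rose from 0 to 1 with DESeq2 (Aldh1a1) and to 1 without replicate 4 of KO + IgG (Crabp2), and was 0 to 1 with each tumor left out. The count of other pathway genes rose to 4 with DESeq2 and to 6 without replicate 4 of KO + IgG, beside 6.21% and 14.3% of all genes, and was 0 to 6 with each tumor left out. The causes were not tested. Members whose genotypes did not overlap in normalized counts numbered 1 to 2 with each tumor left out. Of all 16563 genes compared, 1470 to 2176 did not overlap in these settings. Crabp1, which this comparison picked, was in each count of members.

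In the neutralization comparison, the differences of Crabp2, Aldh1a1 and Rarg turned in sign. Crabp2 was 0.07 without replicate 3 of isotype IgG and 0.13 without replicate 6 of anti-IL-38 (−0.92 to 0.13 with each tumor left out). Aldh1a1 was 0.034 without replicate 6 (−1.07 to 0.034), and Rarg was −0.066 without replicate 3 of isotype IgG and −0.01 without replicate 2 of anti-IL-38 (−0.066 to 0.15). The Crabp1 difference was 0.08 to 1.09, with exact permutation p of 0.181 to 0.914.

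Tumors with the same replicate number did not deviate together (correlations −0.17 to 0.07), so the numbers do not pair them. With the replicate block, which uses only the 5 shared numbers, the neutralization differences were 0.13 for Crabp2 and 0.034 for Aldh1a1, as without replicate 6, and 1.58 for Aldh1a3. The block called 0 members in both tested comparisons. Depth limits Rarb, with 3 reads or fewer in 7 tumors, Stra6 (4 tumors) and Aldh1a1 (2 tumors). All anti-γδTCR tumors have few reads.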
